A study of Homo sapiens with 4 samples.

Results

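AXL (ENSG00000167601) is 1 of the 1176 genes listed in the deposited tables, and its row was selected on its measured level, its rank among the listed genes and its difference between the groups. Those values chose it, so they are given as a description, without a test. The study compared RCC4 cells infected with a lentivirus for a hairpin against MIRE (shMIRE, labelled as a knockdown of MIRE, 2 libraries) with RCC4 cells infected with a control hairpin virus (shControl, labelled wild type, 2 libraries), all on day 3. RCC4 is an established human line of clear cell renal carcinoma without functional VHL, so both groups lack the protein that removes hypoxia-inducible factors, and both were grown in RPMI with serum. All 4 libraries come from this 1 line. The level of MIRE was not analysed here, so the knockdown was not checked, and no label states that libraries of 1 group stem from different infections. P-values therefore reflect only how these libraries vary, and that variation may be technical. The listed genes also look chosen for a difference, so an adjusted p-value given below is no independent support for one.

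AXL encodes a receptor tyrosine kinase of the TAM family, whose other members are TYRO3 and MERTK. Its ligand is GAS6, a vitamin K-dependent protein that bridges the receptor to phosphatidylserine on membranes, and the activated receptor signals through PI3K, AKT and ERK. In clear cell renal carcinoma AXL is known as a gene that hypoxia-inducible factors activate after loss of VHL, and it is tied to invasion and to resistance to kinase inhibitors such as sunitinib.

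In GENCODE 29 (GRCh38) AXL lies on the plus strand of chromosome 19 from 41219203 to 41261766. That annotation holds 5 transcripts. AXL-201 has 20 exons and encodes 894 residues, AXL-202 has 19 exons and encodes 885 residues, and AXL-203 starts inside the gene at 41226755, has 17 exons and encodes 626 residues. AXL-204 and AXL-205 have no coding sequence. The deposited values are per gene and do not separate these transcripts. The antisense gene AC011510.1 (41221426 to 41222051, minus strand) overlaps AXL and was not analysed here, and without a stated strand setting reads from that stretch cannot be told apart.

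Promoters are shown for an upstream start (41219223) and an internal start (41226755) of AXL. They are shown because SP1, AP-1, TEAD and hypoxia-inducible factors are reported regulators of AXL. Genes of AP-1 and TEAD factors appear among the results below. The sequences are from RefSeq (GRCh38.p14), plus strand, 250 bases before to 50 after the start. Capitals mark matches on either strand to GGGCGG (SP1), TGANTCA (AP-1), GGAATG (TEAD), and ACGTG or GCGTG (the core of the hypoxia response element).
AXL upstream start, chr19:41218973-41219272: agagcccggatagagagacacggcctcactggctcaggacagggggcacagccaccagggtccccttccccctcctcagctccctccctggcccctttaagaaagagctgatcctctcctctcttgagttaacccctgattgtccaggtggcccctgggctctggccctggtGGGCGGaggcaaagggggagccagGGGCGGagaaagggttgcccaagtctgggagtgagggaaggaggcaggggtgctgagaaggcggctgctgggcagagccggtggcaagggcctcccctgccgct
AXL internal start, chr19:41226505-41226804: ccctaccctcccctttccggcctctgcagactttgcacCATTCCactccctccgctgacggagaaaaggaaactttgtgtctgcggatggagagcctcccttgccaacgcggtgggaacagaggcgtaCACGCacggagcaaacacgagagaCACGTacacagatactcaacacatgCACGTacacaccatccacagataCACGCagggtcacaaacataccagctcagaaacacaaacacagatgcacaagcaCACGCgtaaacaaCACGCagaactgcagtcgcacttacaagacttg
The upstream promoter held 2 matches to GGGCGG, beginning 78 and 54 bases before the start, and 0 to the other motifs. The internal promoter held 1 match to GGAATG on the minus strand, 2 to ACGTG and 4 to GCGTG, all on the minus strand, and 0 to GGGCGG or TGANTCA. No match overlapped another. Among 35116 RefSeq promoters of the same length, GGGCGG was present in 45.0%, GGAATG in 14.0%, ACGTG in 21.4%, GCGTG in 36.5% and TGANTCA in 7.71%. A match describes letters only and says nothing of whether a factor binds.

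AXL was higher in shMIRE cells. Its deposited values were 56343 and 53925 in shMIRE, against 23143 and 22882 in shControl. The groups did not overlap, as was so for 99.0% of all listed genes: the lower shMIRE value was 2.33 times the higher shControl value. The mean was 55134 ± 1710 in shMIRE and 23012.5 ± 184.6 in shControl (SD, n = 2 each), a ratio of 2.40, and on the log2(value + 1) scale the difference was 1.26. Within a group the libraries lay close together, with an SD of 3.10% of the mean in shMIRE and 0.802% in shControl. The medians over all listed genes were 7.99% and 10.7%. Those genes are mostly of far lower level. The AXL mean was 174.9 times that of the median listed gene in shMIRE and 63.0 times in shControl. Genes of like level were not compared, so the closeness is not read as particular to AXL.

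**Figure D1:**
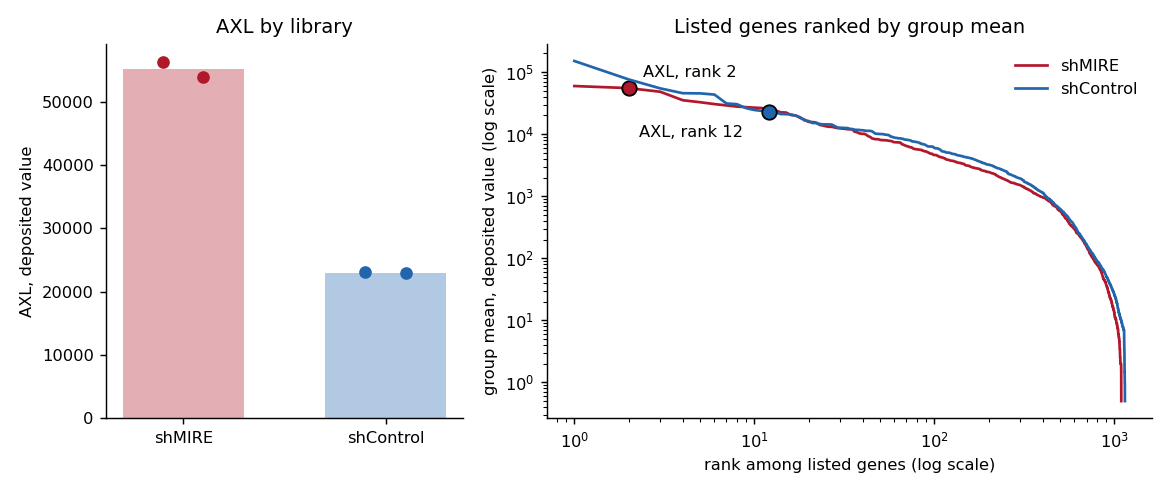
Left, the deposited value of AXL in each library (points) with the group mean (bars, n = 2). Right, group means of the listed genes by rank on log axes, with AXL at rank 2 in shMIRE and rank 12 in shControl; genes with a mean of 0 are left out.

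The listed genes differ between the groups by a factor of about 2 or more, and the median ratio of the genes higher in shMIRE was 2.53. AXL stood at place 256 by ratio among the 431 higher genes that have a ratio, so its ratio was just below the median. By the difference of mean deposited values, with no correction for length, AXL stood first, at 32121.5. That was 4.03% of the summed differences over the 463 genes higher in shMIRE. Per kilobase of merged exons FOSL1 differed more, with means of 18636.7 in shMIRE and 7593.5 in shControl. Those of AXL were 10697.3 and 4465.0. The share of AXL in the summed listed values was 2.76% and 2.69% in the shMIRE libraries and 0.934% and 0.910% in the shControl libraries. These sums, between 2002994 and 2514039 per library, cover the listed genes only, so the share is none of the whole library, whose depth is unknown.

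By deposited value AXL was second of 1176 in each shMIRE library, and 13th and 12th in shControl replicates 1 and 2. Next below in shMIRE was MICAL2, an oxidase of actin filaments (47420 and 48945), whose values did not overlap those of AXL, followed by FOSL1, ITGA5 and CRIM1. The 11 genes with a larger shControl mean than AXL were all lower in shMIRE. In shControl AXL and MICAL2 overlapped, with 23432 and 21686 for MICAL2. Deposited values grow with transcript length, so the order of different genes is given next per kilobase of merged exons.

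Per kilobase AXL was again second in both shMIRE libraries, with values of 10931.9 and 10462.7, against 4490.3 and 4439.7 in shControl. FOSL1, the AP-1 subunit FRA1, was the 1 gene above it in shMIRE, at 19510.9 and 17762.6 per kilobase. The shMIRE values of these genes per kilobase did not overlap. MMP14 (6631.5 and 6371.4) and CITED4 (6944.5 and 6041.8), further down the order, overlapped each other. In shControl AXL was 17th by its mean per kilobase, 14th in replicate 1 and 19th in replicate 2, behind RHOB, TPI1, SLC7A5, TTYH3 and others. Those 4 genes fell in shMIRE, with limma's adjusted p between 9.9e-05 and 0.000141. With the longest transcript as the length, AXL stayed second in shMIRE and was 28th in shControl.

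**Figure D2:**
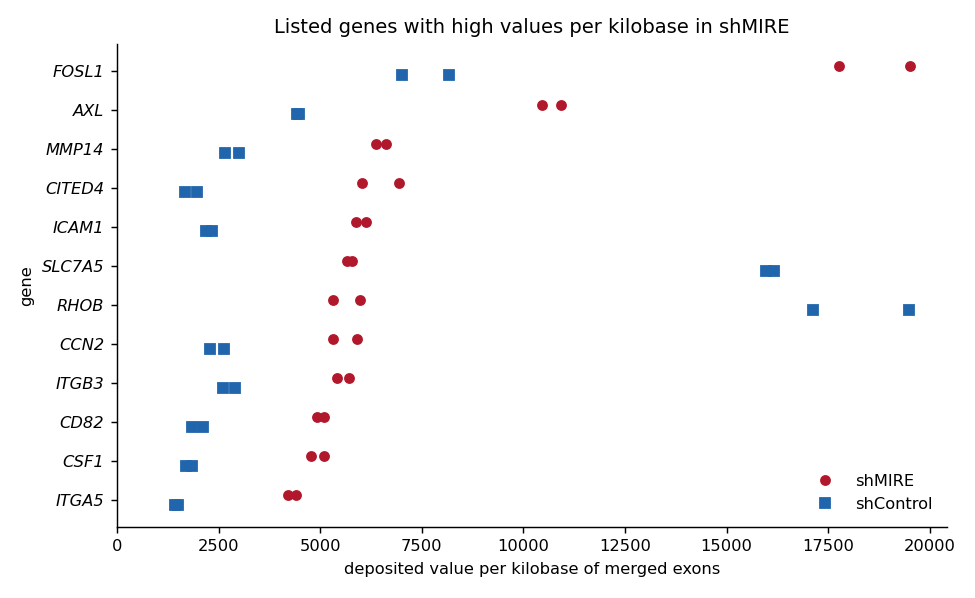
Deposited value per kilobase of merged exons for 12 listed genes with high values in shMIRE, 1 point per library. AXL lies next to FOSL1 at the top in shMIRE, and SLC7A5 and RHOB are the genes of the plot with higher values in shControl.

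Of the 4 other genes of the TAM family and its ligands, MERTK was listed, and TYRO3, GAS6 and PROS1 were not analysed here. MERTK, the receptor known for clearance of dying cells by macrophages, had values of 334 and 362 in shMIRE, against 214 and 97 in shControl. The groups did not overlap, but the shControl libraries lay far apart. Its ratio was 2.24, close to that of AXL, and it rose with limma (log2 fold change 1.26 ± 0.41 SE, adjusted p = 0.0295). That call was lost without shMIRE replicate 1 or 2 (0.209 and 0.233), without shControl replicate 2 (0.0591) and without limma's intensity trend (0.0624). Per kilobase MERTK averaged 74.0 in shMIRE and 33.1 in shControl, far under AXL in either group. Whether the changes of AXL and MERTK differ was not tested.

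Of 57 other receptor tyrosine kinases, 10 were listed, of which 4 rose and 6 fell with limma at an adjusted p under 0.05. Over all 1176 listed genes 97.5% passed, 38.5% higher and 59.0% lower, so that all 10 passed is no result about these kinases. The listed genes look chosen for a difference, although the rule is not stated. Their median log2 fold change was -1.77, where that of all listed genes was -1.16. Besides MERTK the genes that rose were ROR1, NTRK3 and EPHA5. ROR1, a receptor for WNT5A, had values of 12486 and 12192 in shMIRE, against 3998 and 3689 in shControl, a ratio of 3.21 (limma adjusted p = 0.000106). It was the next most abundant kinase of the list after AXL per kilobase in shMIRE, at 1837.5. NTRK3, the receptor of neurotrophin 3, had 225 and 223 in shMIRE, against 26 and 12 in shControl (limma adjusted p = 0.00113). Per kilobase NTRK3 was low, with means of 8.37 in shMIRE and 0.71 in shControl, where EPHA5 had 6.1 and 1.17. The ephrin receptor gene EPHA5 was low, with 63 and 57 in shMIRE, against 18 and 5 in shControl (limma adjusted p = 0.0142, and 0.148 and 0.132 without shMIRE replicate 1 or 2).

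Per kilobase, the receptors that fell had lower group means than AXL and ROR1 in both groups. FGFR3, a fibroblast growth factor receptor, had 701 and 732 in shMIRE, against 1935 and 2239 in shControl, 2.91-fold lower (limma adjusted p = 0.000202). FLT4, the VEGF-C receptor of lymphatic endothelium, had 15 and 31 in shMIRE, against 71 and 112 in shControl (limma adjusted p = 0.0129, but 0.0914 without shMIRE replicate 1, and 0.0934 and 0.148 without shControl replicate 1 or 2). The other four were listed at 0 in both shMIRE libraries. Their shControl values were 14 and 17 for EPHA3, 9 and 16 for ROS1, 6 and 10 for LTK, and 3 and 11 for FLT1, the VEGF receptor 1. With shMIRE replicate 1 or 2 left out the adjusted p of FLT1 from limma was 0.111 and 0.108, and with quantile normalisation it was 0.380 for FLT1 and 0.187 for LTK.

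**Figure D3:**
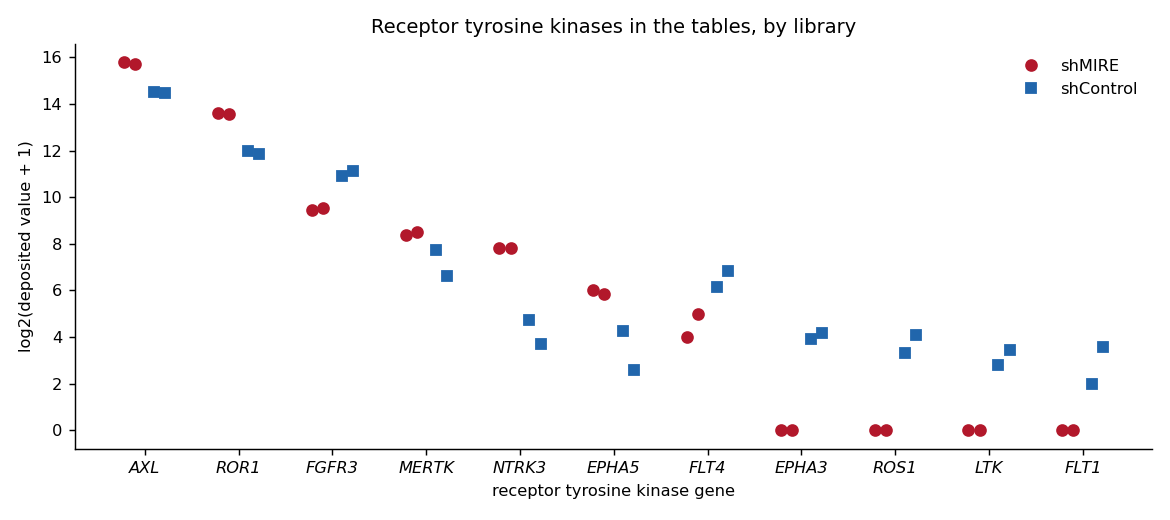
The 11 receptor tyrosine kinases in the tables as log2(deposited value + 1), 1 point per library, ordered by deposited value in shMIRE with no correction for length. AXL lies above its shControl values in both shMIRE libraries, and 4 genes lie at 0 in shMIRE.

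Of 43 ligands of receptor tyrosine kinases the tables held 1, CSF1, the macrophage growth factor that acts on CSF1R. Its values were 27538 and 25845 in shMIRE, against 9254 and 9975 in shControl, a ratio of 2.78 (limma adjusted p = 0.00011). Of 33 adaptors and effectors of AXL signalling, 2 were listed and both rose, where 97.5% of all listed genes passed and 38.5% rose. PIK3R3, a regulatory subunit of PI3K, had 1802 and 1845 in shMIRE, against 740 and 746 in shControl, 2.45-fold higher (limma adjusted p = 0.000166). SOCS1, a suppressor of cytokine signalling, had 1016 and 827 in shMIRE, against 56 and 79 in shControl, 13.7-fold higher (limma adjusted p = 0.000175). AKT1, AKT2, GRB2, SRC and the remaining genes of that list were not analysed here. Of 11 genes for shedding and cleavage of AXL the tables held 1, TIMP3, an inhibitor of matrix proteases and of the ADAM proteases that shed receptors. It was listed at 0 in both shMIRE libraries and at 21 and 30 in shControl (limma adjusted p = 0.000396).

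A list of 26 genes of transcription factors and their partners was drawn up around AXL, mostly AP-1, TEAD, SP1 and hypoxia factors. Of them 4 were listed, and 2 rose and 2 fell with limma. Over all listed genes 97.5% passed, 38.5% higher and 59.0% lower, so that all 4 passed is no result about these factors. FOSL1 had 36817 and 33518 in shMIRE, against 13250 and 15408 in shControl, a ratio of 2.45 (limma adjusted p = 0.000275). FOS, another AP-1 subunit, had 941 and 966 in shMIRE, against 1732 and 2246 in shControl, 2.09-fold lower (limma adjusted p = 0.00167, and 0.0602 and 0.0554 without shMIRE replicate 1 or 2). The AP-1 genes differed in direction. TEAD4, a partner of the coactivator YAP, had 1387 and 1276 in shMIRE, against 3987 and 4863 in shControl, 3.32-fold lower (limma adjusted p = 0.000202). MYBL1, a MYB family factor, had 4014 and 4266 in shMIRE, against 1960 and 1694 in shControl, 2.27-fold higher (limma adjusted p = 0.000327). HIF1A, EPAS1, YAP1 and WWTR1 were not analysed here.

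AXL belongs to the genes of the epithelial-mesenchymal transition, of which 7 of 23 others were listed; 6 rose and 1 fell with limma, where 38.5% of all listed genes rose and 59.0% fell. The list was drawn up with earlier results known, so this count is a description. ITGA5, the fibronectin receptor subunit alpha 5, had 33394 and 31883 in shMIRE, against 10786 and 11424 in shControl, and the membrane protease gene MMP14 had 29603 and 28442, against 11836 and 13462. ITGB3, the integrin beta 3 subunit, had 23792 and 25058 in shMIRE, against 12727 and 11446 in shControl. MMP2, SPARC and TGFB2 rose as well, with shMIRE values between 39 and 275 and shControl values between 10 and 94. ITGAV, the integrin alpha V subunit, fell, with 2528 and 2612 in shMIRE, against 6533 and 5344 in shControl. Limma's adjusted p was between 0.000106 and 0.00517 for these 7 genes. The median log2 fold change of the 7 was 1.51, where that of all listed genes was -1.16 and that of AXL 1.26; nothing particular to this list is read from it.

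**Figure D4:**
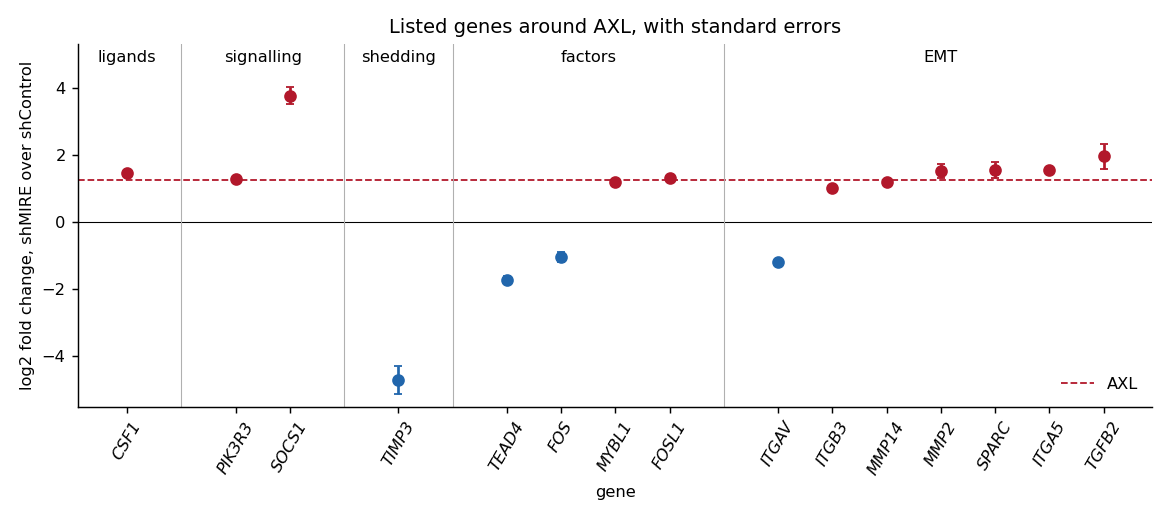
Limma log2 fold change of shMIRE over shControl, with standard errors, for listed ligands of receptor tyrosine kinases, signalling partners of AXL, genes of shedding, transcription factors and genes of the epithelial-mesenchymal transition (EMT). The dashed line is the value of AXL, 1.26; TIMP3, TEAD4, FOS and ITGAV lie below 0.

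Of 21 other genes tied to resistance to kinase inhibitors in renal carcinoma, 3 were listed: FLT1 and FLT4, given above, and IL6. IL6, an inflammatory cytokine, had 3312 and 3389 in shMIRE, against 1269 and 1461 in shControl, 2.45-fold higher (limma adjusted p = 0.000237). MET, the receptor that together with AXL and KDR is a target of cabozantinib, was not analysed here, nor were KDR, VEGFA and ABCB1.

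AXL is also expressed by macrophages, fibroblasts and endothelial cells, whose markers were counted beside it. Of 12 macrophage and leukocyte markers 2 were listed and both rose, beside 38.5% of all listed genes. ITGB2 had 27107 and 25573 in shMIRE, against 7177 and 7973 in shControl, and ITGAM 155 and 146, against 73 and 53. Limma's adjusted p of ITGAM was 0.00996, but it was 0.0852 or 0.0741 without 1 of the shMIRE libraries and 0.0756 when shControl replicate 2 was left out. PTPRC, CD14, CD68 and the other leukocyte markers were not analysed here. Of 16 fibroblast and endothelial markers 5 were listed, with sums of 5068 and 4765 in shMIRE, against 1435 and 1518 in shControl. Most of these sums was COL1A1 alone, with 4407 and 4095 in shMIRE, against 1261 and 1290 in shControl. The sums therefore do not describe the markers as a set, which differed in direction. Over all listed genes 38.5% rose and 59.0% fell. COL1A1, COL6A3 and ROBO4 rose, FLT1 fell to 0, and PDPN, at 7 and 0 in shMIRE against 13 and 38 in shControl, passed with limma (adjusted p = 0.0482) but had 0.197 or 0.355 when 1 of the shControl libraries was dropped and 0.234 when shMIRE replicate 2 was. Its adjusted p was also above 0.05 in 4 further alternatives, between 0.0502 with equal sums and 0.184 with quantile normalisation. Of 14 kidney tubule and epithelial markers 2 were listed. MIOX, an oxidase of the proximal tubule, had 1562 and 1324 in shMIRE, against 575 and 772 in shControl, and the endocytic receptor gene LRP2 was at 0 in shMIRE, against 6 and 18 in shControl. Limma's adjusted p was 0.00295 for MIOX and 0.00364 for LRP2, but with shMIRE replicate 1 or 2 left out it was 0.0780 and 0.0549 for MIOX and 0.0679 and 0.0659 for LRP2, which had 0.131 with quantile normalisation. With so few markers in the tables the labelled epithelial identity could not be checked. All 4 libraries are labelled as the RCC4 line, so these markers are not read as other cell types in them. Purity of the cultures was not tested, and in bulk RNA more cells with AXL and more AXL per cell cannot be told apart.

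Among the 796 genes with a mean value of at least 100, AXL included, likeness to AXL was measured as the Euclidean distance between log2(value + 1) centred on each gene's mean over the 4 libraries. The nearest were PADI3 (distance 0.037), a peptidylarginine deiminase gene, UPK3B (0.067), a uroplakin gene, HIVEP3 (0.072), a zinc finger gene, PIK3R3 (0.079), MYLK (0.082), which encodes myosin light chain kinase, TFAP2C (0.086), a transcription factor gene, ZNF850 (0.089) and VWCE (0.089). Their ratios lay between 2.30 and 2.49, against 2.40 for AXL. The choice by distance brings this closeness about, so it is no separate finding. MYLK was the most abundant of them per kilobase (1011.9 in shMIRE), and its deposited values were 22890 and 21972 in shMIRE, against 9427 and 9948 in shControl. The distance rests on 4 libraries in 2 groups: leaving out 1 library kept 2 or 3 of these 8 genes, and quantile normalisation kept 1.

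Among the 19 genes higher in shMIRE with a mean over the 4 libraries of at least 10000, a bound on deposited values without length that was chosen after they were seen, AXL was 10th by ratio. The ratios ran from 2.01 to 9.28. Place 10 of 19 is the middle, so the median of 2.40 was the ratio of AXL itself. The highest ratio was that of HMGA2, an architectural chromatin protein gene, and it is named because it led this order.

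**Figure D5:**
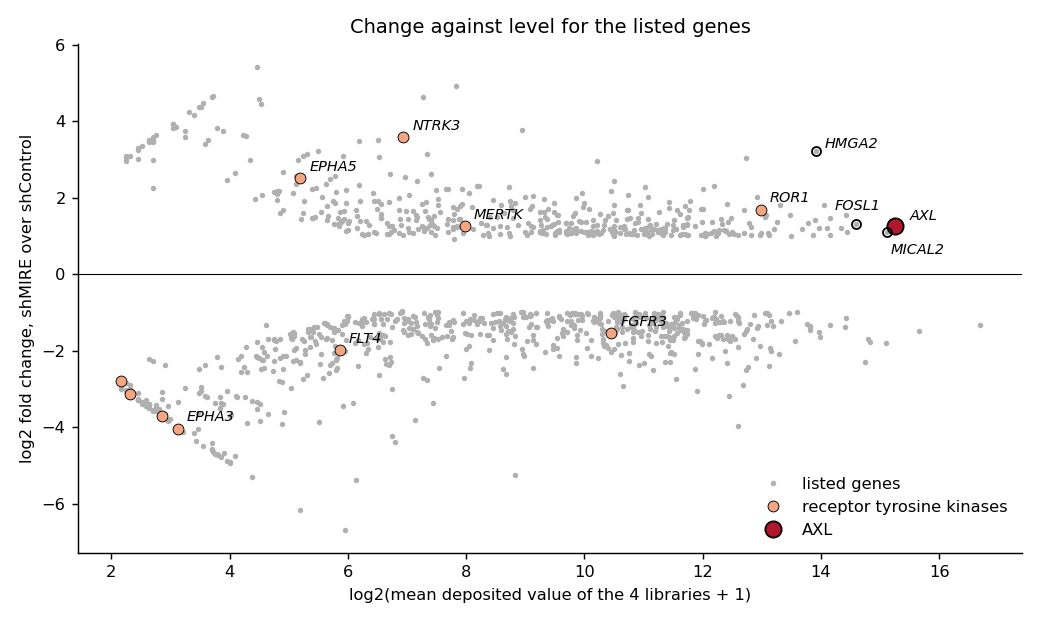
Log2 fold change of shMIRE over shControl against the mean level of each listed gene, on the log2(value + 1) scale. AXL lies at the high end of the level axis with a change of 1.26; genes with a change near 0 are not in the tables.

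The longest annotated 3′ UTR of AXL, 1862 bases in GENCODE 29, held 0 copies of the heptamer GCTGTGT, which had been singled out from an earlier analysis of these tables. It was present in 84 of 459 genes higher in shMIRE (18.3%) and in 289 of 704 genes lower (41.1%). As the heptamer was picked from these same data, this difference is a description and no test of it. The shares were not adjusted for 3′ UTR length. Of the other receptor tyrosine kinases, FGFR3 held 2 copies in 3087 bases and NTRK3 2 in 17184 bases. LTK held 1 in 358 bases and FLT1 1 in 4153 bases. ROR1, MERTK, EPHA5, FLT4, EPHA3 and ROS1 held 0.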

How the data were processed

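RNA of 4 libraries of RCC4 cells was sequenced, 2 of shMIRE and 2 of shControl, from polyadenylated RNA per the labels' protocols. Per the submitters' processing notes, the genome build was hg38 and the tools included DESeq2 1.20.0, featureCounts 1.5.0-p3 and HISAT2 2.0.5; their order is not given. The deposited values are whole numbers per gene and look scaled between libraries and rounded, so they were handled as a score and not as raw counts; how they were scaled, and by which rule genes were listed, is not given in the sources used here. Library depth is unknown, so no counting interval is given.

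Values were taken as log2(value + 1), which understates changes of low genes, and genes with a mean above 1 were kept (all 1176). The comparison was made in R 4.3.3 with limma 3.58.1, two-sided, with an intensity trend and no covariates. Calls were made at 0.05 after Benjamini-Hochberg adjustment over all 1176 genes. As these genes look chosen for a difference, the adjustment covers no genes outside the list. An adjusted p-value of a single gene is therefore no independent support for its difference. Ratios are of group means. Lengths are merged exons of GENCODE 29, found for 1174 genes.

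AXL and the 11 gene lists (234 other genes, 34 listed, 22 up and 12 down) were chosen with earlier results of these data known. Over all 1176 listed genes 38.5% were called up and 59.0% down. Because of how the lists were chosen, their counts are a description, and no excess is read from them. Named were the listed members of the lists, the 8 genes nearest in pattern, neighbours of AXL in level and listed genes within 1000000 bases of it; of lists with more than 8 listed members the rule took the 8 most abundant, and ROS1 and LTK were added so that every listed receptor is given. CITED4 and HMGA2 were named after their values were seen, and 1 gene that the rule names is not reported here. Alternatives were other scalings, pseudocounts, filters and thresholds, limma without its trend, the replicate number as a block and each library left out.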

Additional observations from a re-analysis of the deposited data

How the results depend on the processing

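The change of AXL had the same direction under all alternatives that were run. Against 1.26 as reported, quantile normalisation gave 1.47, scaling to equal sums gave 1.56 and leaving out 1 library gave 1.23 to 1.29. Those scalings moved the median of all listed genes by 0.33 and 0.31. Relative to that median AXL lay at 2.30 and 2.41, against 2.42. Both scalings used the listed genes alone, of which 463 were higher and 713 lower in shMIRE. They treat the libraries as alike over those genes, which such a list need not meet. Shifts and lost calls under them therefore cannot be assigned to single genes. Per kilobase AXL had rank 3 in shMIRE with quantile normalisation, and 28th in shControl with the longest transcript as length; by deposited value it was 12th or 13th in shControl with 1 library left out. Its place by ratio was 278 with quantile normalisation and 245 to 262 with 1 library left out. Of the 8 genes nearest in pattern, 1 was kept with quantile normalisation and 2 to 3 with 1 library left out; the cause was not tested. The 1147 genes past the threshold (453 up, 694 down) became 1018 with quantile normalisation (456 up, 562 down) and 827 to 900 when 1 library was dropped; a group with a single library then takes its spread from the other group. Of the 34 listed members of the gene lists, 26 to 32 passed with 1 library left out. With a block for the replicate number, 1175 genes and all 34 members passed; across genes the correlation between libraries of the same number, as deviations from their group means, was 0.0321, which gives no sign of pairs, and the change of AXL stayed at 1.26 under the block. Of 49 named genes besides AXL, 37 kept their call at 0.05 in every alternative fit and 0 changed sign. No count test was run on values that seem scaled beforehand. Depth limits are unknown without library totals.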

Other observations

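Around AXL on chromosome 19, GENCODE 29 places 64 other protein-coding genes within 1000000 bases on either side, of which 2 were listed. POU2F2, a POU domain transcription factor gene, had 212 and 150 in shMIRE, against 86 and 68 in shControl (limma adjusted p = 0.0127, but 0.0924 without shMIRE replicate 1, and 0.0932 and 0.134 without shControl replicate 1 or 2). HIPK4, a kinase gene, was listed at 0 in both shMIRE libraries and at 7 and 9 in shControl (limma adjusted p = 0.00124, but 0.140 with quantile normalisation). The nearest protein-coding neighbours, CYP2S1 (41193049 to 41207539) and HNRNPUL1 (41262496 to 41307598), were not analysed here, nor was TGFB1 (41301587 to 41353911).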
